A study of Drosophila melanogaster with 9 samples.

Results

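The genes described here are Notch ligands, the receptor, regulators and target genes: Delta, Ser, N, Su(H), H, neur, fng, E(spl)m3-HLH and E(spl)mbeta-HLH. A member was every probe set, the group of short probes that reads out 1 transcript, which the platform annotation maps to 1 of these symbols alone. Of the 9 genes, 6 had such a probe set. Delta and H had 2 each, so that 8 of the 18769 tested probe sets are members, and the series has a named probe set for 11982 genes in all. Ser, N and Su(H) had none under these symbols and are not analysed here.

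RNA was profiled on 9 single-color Affymetrix arrays from metastatic tumors of Drosophila, with 3 arrays from transplant round T1, 3 from T2 and 3 from T10. The tumors began as midgut clones mutant for Apc and Apc2 (alleles ApcQ8 and Apc2N175K) that overexpressed UAS-RasV12, UAS-Sna and UAS-GFP under esg-Gal4, and all 9 samples share this genotype. Macrometastases from the abdomens of 3 flies were cut up and passed through young adult female yw hosts, and a piece of each was lysed in rounds 1, 2 and 10. Donor flies were 3 weeks old at dissection, and the host age is given only as young. The esg-Gal4 driver is active in gut progenitor cells, so the transgenes depend on esg activity, and no sample without the tumor genotype is in the series. The hosts were kept at 25 °C according to the labels and at 29 °C according to the methods. The labels name the 3 arrays of each round technical replicates while the design text names 3 flies, so that p-values here measure the spread among these arrays, part of which may be technical.

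Notch is a cell surface receptor that is activated by ligands on the neighboring cell. Delta and Serrate are its ligands, Neuralized is the ubiquitin ligase that drives the endocytosis a ligand needs to signal, and Fringe is a glycosyltransferase that adds sugars to Notch and shifts which ligand it answers to. Cleaved Notch enters the nucleus and joins Suppressor of Hairless, which in its absence is held in a repressor complex by Hairless. The best known targets are the E(spl) complex genes, which code for basic helix-loop-helix (bHLH) repressors and for small Bearded family proteins, inhibitors of Neuralized. In the adult fly midgut, Delta marks the intestinal stem cell, and Notch activity in its daughter, the enteroblast, drives enterocyte fate.

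Values are the deposited log2 expression values, so that 1 unit is a 2-fold difference, and levels of different probe sets are not comparable with each other. A difference was called at an adjusted p under 0.05 in limma's moderated test, adjusted by Benjamini-Hochberg over all 18769 probe sets. T2 replicate 3 differed from the rest of its round: over all probe sets, whose values are not independent, it correlated at 0.964 to 0.984 with T10 arrays and at 0.932 to 0.95 with the other arrays of T2. Array medians were 6.47 to 6.71. On all 9 arrays, 0.0107% of probe sets were called for T10 against T1, 0% for T10 against T2 and 0.00533% for T2 against T1. None of the 8 member probe sets was among them, while limma's unadjusted p was under 0.05 at 4, 0 and 3 of the 8, beside 20.8%, 17% and 6.16% of all probe sets. The members are therefore given with T2 replicate 3 and without it, and for T10 against T1 also from a pairwise limma fit, made on the 6 arrays of these rounds without T2.

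Delta, the ligand gene, had higher values in T10 than in T1 at both of its probe sets, by 10.2-fold and 12.2-fold, and T2 lay between them. At the probe set 1634398_a_at, the T1 arrays read 7.24, 6.72 and 8.03 and the T2 arrays 9.44, 8.25 and 10.64. The T10 arrays of this probe set read 10.43, 11.05 and 10.58. All 6 later arrays were thus above all 3 T1 arrays, and T2 replicate 3 lay among the T10 arrays, above 2 of them. At 1634659_at, the values were 6.24, 5.66 and 7.20 in T1, 8.63, 7.55 and 10.07 in T2, and 9.46, 10.57 and 9.89 in T10. The order of the 9 arrays was the same at both, and their values had a Pearson correlation of 0.997 over the 9 arrays, which share 1 RNA sample each.

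**Figure D1:**
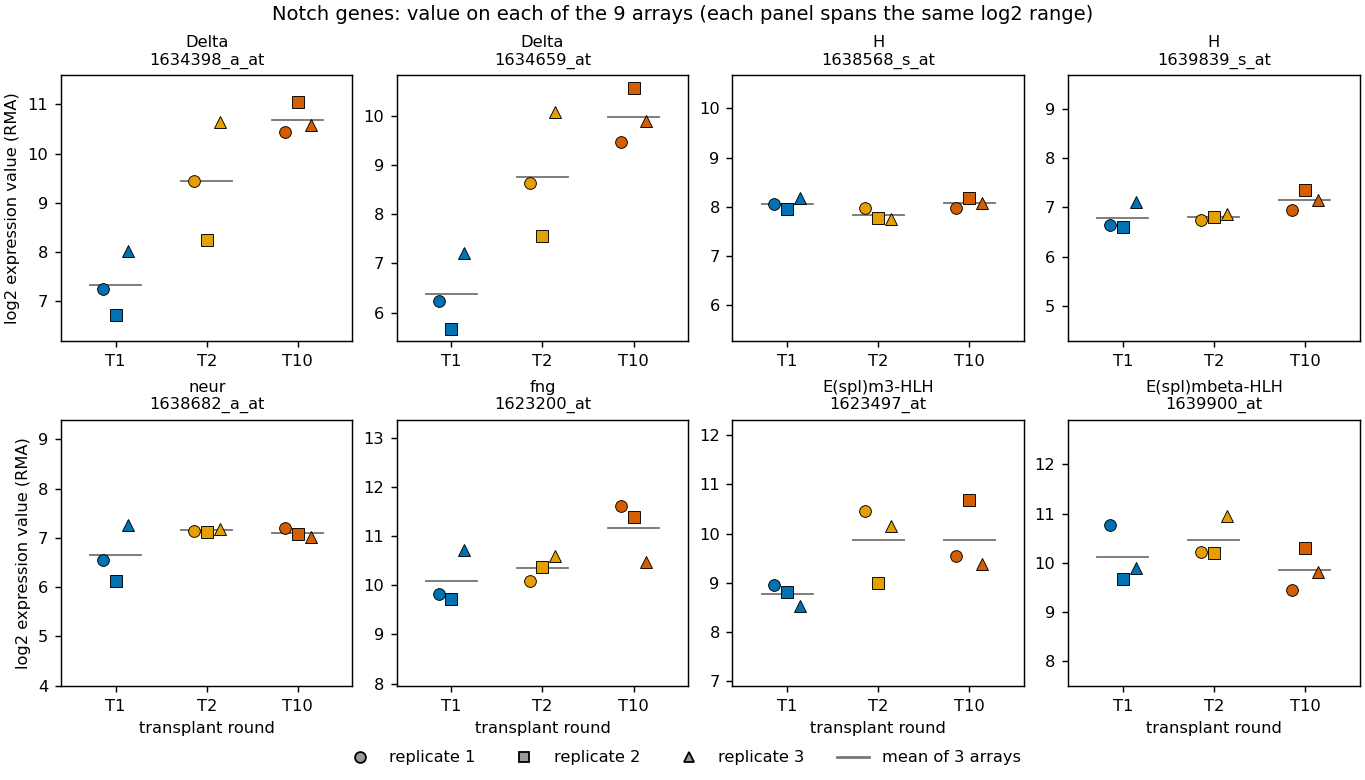
The log2 expression value (vertical axes, each spanning the same log2 range) of the 8 member probe sets is plotted for the transplant rounds T1, T2 and T10, with a circle, square and triangle for replicates 1, 2 and 3 and a line at the mean of 3 arrays. Both Delta panels climb from T1 means of 7.33 and 6.37 to T10 means of 10.69 and 9.97, while the H panels span less than 1 log2.

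In means, 1634398_a_at stood at 7.33 ± 0.66 (SD, n = 3) in T1, 9.44 ± 1.20 (n = 3) in T2 and 10.69 ± 0.32 (n = 3) in T10. The log2 difference of T10 against T1 was 3.36 (95% interval 2.0 to 4.71), and limma gave an adjusted p of 0.0831 with all 9 arrays. In the pairwise fit, Delta rose at both probe sets (adjusted p = 0.00877 and 0.0149, limma). Without T2 replicate 3 it also rose (adjusted p = 0.00704 and 0.00893), and the range over all alternatives was 0.00576 to 0.644 for the first probe set and 0.00646 to 0.644 for the second. The exact permutation test, two-sided on 3 arrays a round, gave 0.1, the smallest p this design allows. In a bulk sample, fewer cells of a type and less RNA per cell cannot be told apart, which holds for every gene below.

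The T2 arrays of Delta were spread over 2.39 log2 at 1634398_a_at, more than the arrays of either other round. T2 against T1 gave a log2 difference of 2.11 (interval 0.76 to 3.47) at this probe set and of 2.38 (0.85 to 3.91) at 1634659_at, with an adjusted p of 0.760 from limma at both. Without T2 replicate 3 these were 1.51 and 1.72, and the other T2 arrays still read above each T1 array. T10 against T2 gave 1.24 and 1.22, and 1.84 and 1.88 without T2 replicate 3, where the adjusted p of limma was 0.0644 and 0.0910. Neither neighboring step in the order T1, T2, T10 passed the test. The step from T2 to T10 passed at 1634398_a_at only when T1 replicate 3 was left out as well (log2 difference 1.84, adjusted p = 0.0437 from limma), an alternative added after the values had been seen.

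The genes that act on the ligands and on the receptor differed less. The ubiquitin ligase gene neur read 6.56, 6.13 and 7.26 in T1, 7.15, 7.13 and 7.19 in T2, and 7.20, 7.09 and 7.01 in T10. The 6 later arrays fell within 0.19 log2 of each other, while the T1 arrays spanned 1.13, with T1 replicate 3 the highest of all 9. The log2 difference of T10 against T1 was 0.45 (interval -0.13 to 1.03, adjusted p = 0.351 from limma), and that of T2 against T1 was 0.51 (adjusted p = 0.760). T10 and T2 differed by -0.06, with an interval of -0.64 to 0.52. These steps of neur were 0.49 and -0.04 without T2 replicate 3, and its pairwise adjusted p for T10 against T1 was 0.423 from limma. Without T1 replicate 3, neur rose by 0.76 between T1 and T10 (adjusted p = 0.0492, limma, with a range of 0.0300 to 0.877 over the alternatives), so that this array decides the call.

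The glycosyltransferase gene fng read 9.83, 9.71 and 10.71 in T1 and 10.08, 10.38 and 10.60 in T2. Its T10 arrays read 11.60, 11.38 and 10.48. T10 replicates 1 and 2 were the highest of the 9, and T10 replicate 3 lay below T1 replicate 3, so the rounds overlapped. The differences were 1.07 for T10 against T1 (interval 0.24 to 1.90, adjusted p = 0.152 from limma), 0.80 for T10 against T2 (adjusted p = 0.304) and 0.27 for T2 against T1 (adjusted p = 0.855). The latter differences of fng were 0.92 and 0.15 without T2 replicate 3, and the pairwise fit gave an adjusted p of 0.182 from limma for T10 against T1. With replicate 3 of every round left out, which leaves 2 arrays a round, fng rose by 1.72 between T1 and T10 (adjusted p = 0.00949, limma, the lowest of a range up to 0.719 over the alternatives). It rose by 1.26 between T2 and T10 (adjusted p = 0.0183, the lowest of a range up to 0.898).

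Of Su(H) and H, only H had a probe set, and its protein Hairless keeps Suppressor of Hairless in its repressing form. The values of 1638568_s_at were 8.06, 7.95 and 8.19 in T1, 7.98, 7.78 and 7.75 in T2, and 7.97, 8.19 and 8.08 in T10. The T10 mean of this probe set was 0.01 above the T1 mean (interval -0.24 to 0.27, adjusted p = 0.962 from limma). The values of 1639839_s_at were 6.65, 6.61 and 7.12 in T1, 6.75, 6.81 and 6.87 in T2, and 6.95, 7.35 and 7.15 in T10. T10 was 0.36 higher than T1 there (interval -0.02 to 0.73, adjusted p = 0.261 from limma) and 0.34 higher than T2 (adjusted p = 0.325). For H, the pairwise adjusted p from limma was 0.961 and 0.323 at these probe sets, and without T2 replicate 3 the differences of T10 against T2 were 0.20 and 0.37 and those of T2 against T1 -0.19 and -0.01. The H probe sets followed each other less closely than those of Delta, with a Pearson correlation of 0.568 over the 9 arrays.

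Of the target genes, E(spl)m3-HLH had higher values in the later rounds, short of the threshold, and E(spl)mbeta-HLH overlapped between rounds. E(spl)m3-HLH, a bHLH repressor gene, read 8.96, 8.82 and 8.53 in T1, 10.45, 8.99 and 10.15 in T2, and 9.55, 10.68 and 9.39 in T10. All 6 later arrays lay above the T1 arrays, T2 replicate 2 by only 0.03. The log2 difference was 1.10 for T10 against T1 (interval 0.07 to 2.14, adjusted p = 0.215 from limma, and 0.144 in the pairwise fit) and 1.09 for T2 against T1 (interval 0.06 to 2.13, adjusted p = 0.760). T10 and T2 overlapped and differed by 0.01, with an interval of -1.02 to 1.04. Without T2 replicate 3 the difference of T2 against T1 was 0.95 (adjusted p = 0.924 from limma). It then came mainly from T2 replicate 1, at 10.45, as T2 replicate 2, at 8.99, was near the highest T1 array.

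E(spl)mbeta-HLH, another bHLH repressor gene of the same complex, read 10.77, 9.68 and 9.90 in T1, 10.21, 10.19 and 10.96 in T2, and 9.44, 10.30 and 9.81 in T10. The rounds overlapped, with the highest values in T1 replicate 1 and T2 replicate 3. Its log2 differences were -0.27 for T10 against T1 (interval -1.09 to 0.56), -0.60 for T10 against T2 (interval -1.43 to 0.22) and 0.34 for T2 against T1 (interval -0.49 to 1.16), with adjusted p of 0.726, 0.410 and 0.818 from limma. The pairwise adjusted p of E(spl)mbeta-HLH for T10 against T1 was 0.716 from limma. With T2 replicate 3 left out, its T2 level lay nearer to both rounds, with differences of -0.35 for T10 against T2 and 0.08 for T2 against T1.

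**Figure D2:**
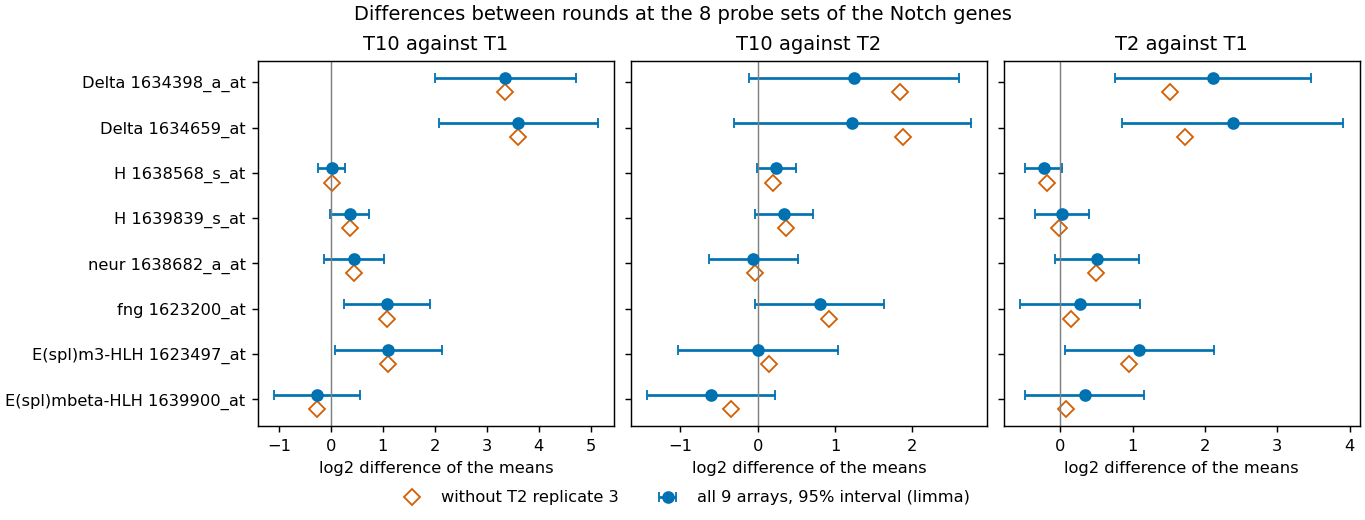
The difference of the log2 means (horizontal axes) is shown for the 8 member probe sets in the 3 comparisons, as filled circles with 95% intervals from limma on all 9 arrays and as open diamonds without T2 replicate 3. Delta lies farthest from 0 in T10 against T1, at 3.36 and 3.61, and its diamonds in T2 against T1 move left to 1.51 and 1.72.

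Counted over the members, 2 of the 8 probe sets were called higher and 0 lower in T10 than in T1 in the pairwise fit, both of them Delta, where 2.98% of all probe sets were called higher and 2.99% lower. Without T2 replicate 3 the counts were again 2 and 0, beside 3.66% and 3.96% of all probe sets. In that fit no member was called between T10 and T2, beside 3.15% called higher and 4.32% lower, or between T2 and T1, beside 0% and 0.00533%. The arrays of T10 and T1 did not overlap at 3 of the 8 probe sets, all higher (Delta at both and E(spl)m3-HLH), beside 12.9% of all probe sets higher and 15.1% lower. The same 3 were higher without overlap in T2 against T1, beside 2.57% higher and 6.86% lower. Between T10 and T2 it was 1 of 8, H at 1639839_s_at, beside 11.9% higher and 9.41% lower. With 1 probe set per gene, the median log2 difference of the 6 genes was 0.76 in T10 against T1, 0.13 in T10 against T2 and 0.42 in T2 against T1, where the medians of all probe sets were -0.01, 0.04 and -0.03.

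Several other genes of the E(spl) complex and of the Bearded family had their highest values on T10 arrays and on T2 replicate 3. By RefSeq (assembly Release 6 plus ISO1 MT), 11 genes of the complex lie on chromosome arm 3R, and 9 of them had a probe set. E(spl)mdelta-HLH, a bHLH repressor gene and the first of the 11 in that order, read 5.67, 5.82 and 4.54 in T1, 4.90, 5.07 and 8.85 in T2, and 7.22, 10.65 and 7.80 in T10. The high arrays were thus those of T10 and T2 replicate 3, while the other T2 arrays stayed within the T1 range. Its difference of T10 against T1 was 3.21, or 9.27-fold (adjusted p = 0.196 from limma, and 0.114 in the pairwise fit). The T1 values of this gene were below the median of every array, so the fold rests on a dim signal. E(spl)m7-HLH, of the same class, read 6.01, 5.79 and 6.19 in T1, 8.01, 6.54 and 9.39 in T2, and 5.82, 10.05 and 8.18 in T10, so that all T2 arrays were above T1 and T10 replicate 1 was not. The smaller difference of E(spl)m5-HLH was 0.91 (adjusted p = 0.214), with 4.75 in T10 replicate 1 and 6.22 and 5.86 in the other T10 arrays.

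Of the Bearded family genes of the complex, which code for small inhibitors of Neuralized, E(spl)m2-BFM and E(spl)m4-BFM were high on the same arrays. E(spl)m2-BFM read 5.71, 5.64 and 5.99 in T1, 5.75, 5.98 and 8.97 in T2, and 6.98, 9.97 and 8.50 in T10. E(spl)m4-BFM read 5.73, 5.84 and 5.34, then 5.67, 5.92 and 8.42, then 6.07, 9.14 and 8.38. In both, T10 replicate 1 was the lowest of its round and T2 replicate 3 was near T10 replicate 3. E(spl)malpha-BFM went the other way, with 10.28, 9.78 and 9.75 in T1, 10.90, 9.81 and 9.45 in T2, and 7.03, 9.86 and 8.78 in T10, a difference of -1.38 (adjusted p = 0.298 from limma). E(spl)m6-BFM was lower in T10 than in T1 without overlap, with a difference of -0.70 (adjusted p = 0.146 from limma).

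Outside the complex, Tom, Brd, BobA and Ocho of the same family lie on chromosome arm 3L. Tom read 4.22, 3.94 and 4.37 in T1, 4.16, 3.90 and 8.78 in T2, and 6.64, 9.27 and 8.19 in T10. Tom rose by 3.86 log2, or 14.5-fold, between T1 and T10 in the pairwise limma fit (adjusted p = 0.0298, and 0.146 with all 9 arrays). Without T2 replicate 3 it also rose by 4.0 between T2 and T10 (adjusted p = 0.0158, limma). Its T1 values were below the median of every array, so the fold rests on a dim signal. Brd read 5.35 to 5.66 in T1 and 5.52 in T10 replicate 1, but 8.70 and 7.77 in the other T10 arrays, a difference of 1.85 (adjusted p = 0.235 from limma). BobA and Ocho differed by 0.14 and 0.31.

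**Figure D3:**
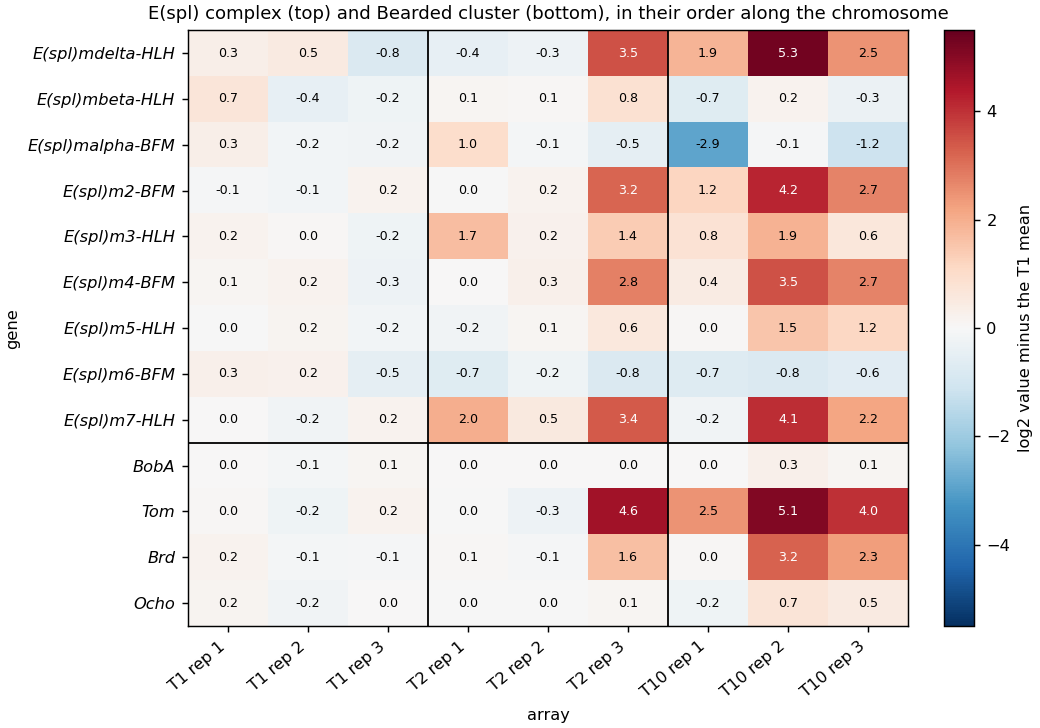
Each cell gives the log2 value of 1 array (columns, ordered by round and replicate) minus the T1 mean of that gene (rows, E(spl) complex above the line and Bearded cluster below it, in chromosome order), colored from blue for lower to red for higher. E(spl)mdelta-HLH, E(spl)m2-BFM, E(spl)m4-BFM, E(spl)m7-HLH, Tom and Brd are red in T2 replicate 3 and in T10 replicates 2 and 3. T10 replicate 1 is red also for Tom, E(spl)mdelta-HLH and, more faintly, E(spl)m2-BFM, and T2 replicate 1 for E(spl)m7-HLH and E(spl)m3-HLH.

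Taken as lists, the 5 bHLH genes and 8 Bearded family genes with a probe set, 13 of 16 listed, had a median difference of 1.10 in T10 against T1, beside -0.01 for all probe sets. Their mean level over the list was 6.06 to 6.36 on the T1 arrays, 6.22 to 7.79 on the T2 arrays and 6.36 to 8.43 on the T10 arrays, with 7.79 in T2 replicate 3. Of the 13, Tom was called higher and 0 were called lower in T10 than in T1 in the pairwise fit. That fit called 2.98% of all probe sets higher and 2.99% lower. The bHLH genes of the complex resemble each other in sequence, and a part of the signal shared between their probe sets was not tested.

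Among the 18 genes that handle ligands and receptor, of 21 listed, Kul and bib rose and mib2 and spdo fell between T1 and T10 in the pairwise limma fit. Thus 2 of the 18 were called higher and 2 lower, beside 2.98% and 2.99% of all probe sets. Kul, a metalloprotease of the Kuzbanian family, read 7.81, 8.09 and 8.20 in T1, 7.56, 7.83 and 9.68 in T2, and 9.77, 10.01 and 9.64 in T10, a rise of 1.77 (adjusted p = 0.00540, and 0.110 with all 9 arrays). The neurogenic gene bib, an aquaporin family member, read 3.45, 3.55 and 3.73, then 3.51, 3.53 and 4.43, then 4.93, 5.75 and 4.77, a rise of 1.57 from a dim signal (adjusted p = 0.0319). T2 replicate 3 lay with T10 in Kul and between T1 and T10 in bib.

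Of the genes that fell, spdo, whose protein Sanpodo acts in Notch signaling at asymmetric divisions, read 8.45, 7.77 and 8.31 in T1, 8.08, 7.31 and 6.29 in T2, and 6.14, 6.43 and 6.44 in T10. It fell by 1.84 log2 (adjusted p = 0.0104, pairwise limma fit), and the T2 arrays bridged both levels. The ubiquitin ligase gene mib2 fell by 0.54, from 10.84, 10.88 and 10.68 to 10.21, 10.24 and 10.34 (adjusted p = 0.0393 in the same fit). Its T2 arrays, at 10.48, 10.66 and 10.40, lay between those of T1 and T10 without overlap. The metalloprotease gene kuz, whose product cleaves Notch, read 11.24, 10.64 and 10.67 in T1, 10.29, 9.88 and 9.04 in T2, and 10.29, 9.83 and 9.49 in T10, a difference of -0.98 for T10 against T1 (adjusted p = 0.170 from limma) and of -1.11 for T2 against T1 (adjusted p = 0.760).

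The nuclear partners and the other listed targets were mixed. Of the 4 nuclear partners with a probe set, none was called on all 9 arrays, in the pairwise fit or without T2 replicate 3, while 1, gro, was called higher in T10 than in T1 with array weights. At the probe sets that stood for their genes, the co-repressor genes gro and CtBP had the smallest p-values. They differed by 0.72 and 0.25 in T10 against T1 (adjusted p = 0.125 and 0.272 from limma). Another probe set of mam was lower in T10 than in T1 without overlap (-0.69, adjusted p = 0.245 from limma). The other probe set of CtBP differed by -0.17 (adjusted p = 0.678). Of 8 other listed target genes, nvy and emc rose between T1 and T10 in the pairwise fit, where 2.98% of all probe sets were called higher and 2.99% lower. The co-repressor gene nvy read 3.51, 3.30 and 3.62 in T1, 3.46, 3.38 and 4.48 in T2, and 7.43, 7.58 and 5.93 in T10, a rise of 3.50 or 11.3-fold from a dim signal (adjusted p = 0.0148). As in bib, T2 replicate 3 did not reach the lowest T10 array, and the other T2 arrays stayed within the T1 range. The gene emc, an inhibitor of proneural proteins, rose by 1.26 (adjusted p = 0.0366), from 10.27, 9.51 and 10.27 to 11.35, 11.33 and 11.15, with 11.43 in T2 replicate 3.

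**Figure D4:**
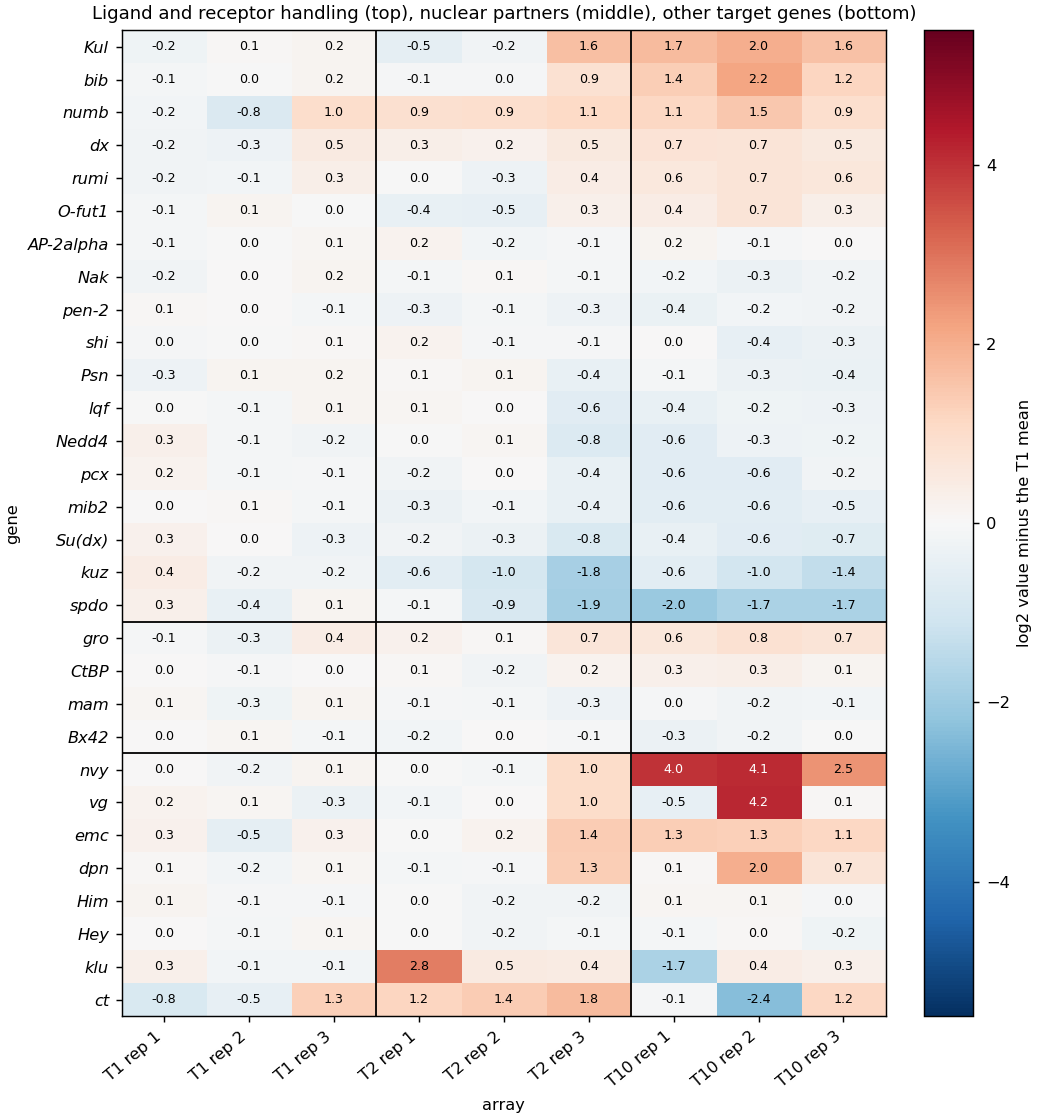
Each cell gives the log2 value of 1 array (columns) minus the T1 mean of that gene (rows, sorted by the difference of T10 against T1 within each of the 3 lists), colored from blue for lower to red for higher. Rows with strong color are few: Kul, bib and nvy are red and spdo is blue on all 3 T10 arrays, and most genes of ligand and receptor handling stay pale.

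Over the whole pathway, 47 of 58 listed genes had a probe set. Of these 47, 6 were called higher (Delta, Kul, bib, Tom, nvy and emc) and 2 lower (mib2 and spdo) in T10 than in T1 in the pairwise fit, where 2.98% and 2.99% of all probe sets were. Without T2 replicate 3 the same counts, 6 and 2, were found, beside 3.66% and 3.96%. In T10 against T2 without that array, 7 were called higher (Kul, O-fut1, rumi, bib, Tom, nvy and emc) and 1 lower (spdo), beside 3.15% and 4.32%. O-fut1 and rumi, enzymes that add fucose and glucose to Notch, were higher by 0.91 and 0.79 there (adjusted p = 0.0152 and 0.0422 from limma). The arrays of T10 and T1 did not overlap in 15 of the 47 higher and 9 lower, beside 12.9% and 15.1% of all probe sets. The median difference of the 47 was 0.25 in T10 against T1, 0.13 in T10 against T2 and 0.12 in T2 against T1.

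The pathway genes also differed in where the T2 arrays lay between T1 and T10. With the T1 mean set at 0 and the T10 mean at 1, Delta at 1634398_a_at stood at 0.63, 0.27 and 0.99 in T2 replicates 1, 2 and 3. For Tom these places were 0.00, -0.07 and 1.19, and for E(spl)mdelta-HLH -0.14, -0.09 and 1.09. So Delta was already above T1 in the T2 arrays in which Tom and E(spl)mdelta-HLH were at their T1 level. Of 15 pathway genes at least 1 log2 higher in T10 than in T1, 3 had T2 replicates 1 and 2 both above every T1 array, namely Delta, E(spl)m3-HLH and E(spl)m7-HLH. In 9 of the 15 both lay within the T1 range. In 10 of the 15 the T10 arrays were all above those of T1, and T2 replicate 3 reached the lowest T10 array in 8 of these, the exceptions being bib and nvy. No test was made of these places.

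**Figure D5:**
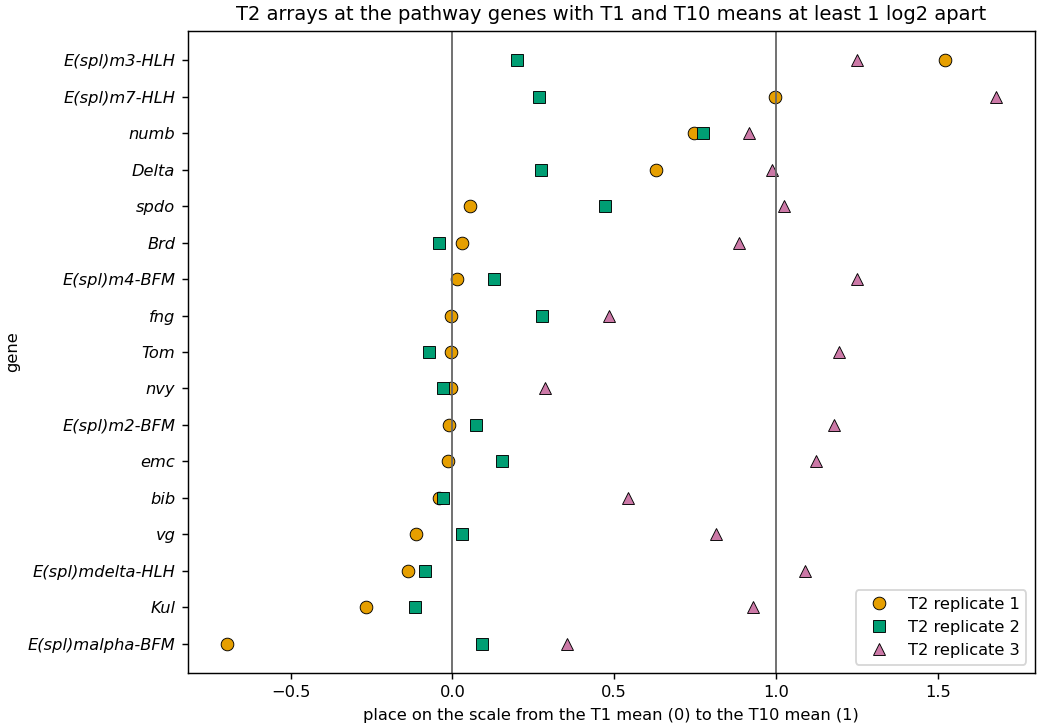
The place of T2 replicates 1, 2 and 3 (circle, square and triangle) on a scale from the T1 mean, at 0, to the T10 mean, at 1 (horizontal axis), is shown for the 17 pathway genes (rows) with T1 and T10 means at least 1 log2 apart. The triangle lies to the right of the circle and square in most genes, with E(spl)m3-HLH as an exception. Delta, with its circle at 0.63 and square at 0.27, stands with E(spl)m3-HLH, E(spl)m7-HLH and numb, where both lie clearly above 0. In numb, unlike the others, these 2 arrays lay within the T1 range, at 8.38 and 8.41 beside 8.46 in the highest T1 array.

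Notch restrains the proneural genes in the sensory organs of the fly. Of 11 proneural and sensory organ genes with a probe set, of 12 listed, none was called for T10 against T1 in the pairwise fit. There, 2.98% of all probe sets were called higher and 2.99% lower. The median difference of the 11 genes was 0.03. The proneural gene ac read 4.45, 4.44 and 4.44 in T1, 4.57, 4.47 and 7.51 in T2, and 6.70, 9.93 and 7.12 in T10. The difference of 3.47 was called without T2 replicate 3 (adjusted p = 0.0417, limma, and 0.119 with all 9 arrays). That fit called 3.66% of all probe sets higher and 3.96% lower. The T1 values of ac were below the median of every array, so this difference rests on a dim signal. The high arrays of ac were thus those of Tom. The homeobox gene pros, a marker of enteroendocrine cells, was lower in T2 than in T1 without overlap, with a difference of -0.76 (adjusted p = 0.760 from limma). In T10 against T1, 1 of the 11 genes was higher (ac) and 2 were lower (cpo and pros) without overlap. The shares of all probe sets were 12.9% and 15.1%. There pros differed by -0.58 (adjusted p = 0.110 from limma), and cpo by -2.50, -3.10 and -0.09 at its 3 probe sets (adjusted p = 0.189, 0.157 and 0.750).

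Markers of other cell types moved between the same rounds, and their part in the Notch gene differences was not tested. Calls of markers here and below stand beside 2.98% of all probe sets called higher and 2.99% lower for T10 against T1 in the pairwise fit. The progenitor gene esg read 11.23, 10.51 and 10.92 in T1 and 10.53, 9.39 and 9.70 in T10, above the median of every array. Of 7 progenitor markers with a probe set, Delta was called higher and Sox100B lower (log2 difference -4.56) for T10 against T1 in the pairwise fit. Not called but lower without overlap were Sox21a (-3.99, adjusted p = 0.0987 from limma) and mira (-1.75, adjusted p = 0.0775). In all, 1 of the 7 was higher and 3 were lower without overlap, beside 12.9% and 15.1% of all probe sets. The mean level of the list was 8.49 to 9.23 in T1, 8.12 to 9.87 in T2 and 7.52 to 8.15 in T10. Of 5 enterocyte markers, mex1 was called lower (log2 difference -3.45) and nub, not called, was higher without overlap (1.55, adjusted p = 0.148 from limma), with list means of 5.81 to 6.15, 5.45 to 6.68 and 5.44 to 5.72. Of 8 enteroendocrine markers, Orcokinin was called lower (-2.23), with list means of 4.44 to 4.85, 4.27 to 4.35 and 4.23 to 4.27, and on average over the 9 arrays all 8 were below the median probe set, although Orcokinin reached 7.93 in T1.

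Of 8 genes listed for trachea and its FGF signaling, which include the ligand gene bnl, serp and verm were called higher by 4.98 and 5.38. Gasp and vvl, not called, were higher without overlap (3.88 and 3.21, pairwise adjusted p = 0.0945 and 0.115 from limma). The gene btl, not called, was lower without overlap (-1.51, adjusted p = 0.118 from limma). In all, 4 of the 8 were higher and 1 was lower without overlap, beside 12.9% and 15.1% of all probe sets. The list means were 6.36 to 6.97 in T1, 6.45 to 8.40 in T2, where T2 replicate 3 had the highest, and 8.54 to 8.92 in T10. Of 10 hemocyte markers, crq was called higher by 1.07, with list means of 5.14 to 5.46, 5.39 to 6.29 and 5.39 to 5.96. Without overlap, 4 of the 10 were higher in T10 than in T1 (crq, Col4a1, vkg and NimC1) and 1 was lower (Nplp2). The shares of all probe sets were again 12.9% and 15.1%. The neuron, muscle and fat body lists had 4, 7 and 6 markers with a probe set. None was called in the pairwise fit at the probe set that stood for its gene. Their list means overlapped between T1 and T10 and were 7.59 to 7.79, 5.15 to 7.32 and 5.29 to 7.23 in T2. On T2 replicate 2 the fat body genes apolpp and Yp2 read 9.93 and 10.55 and the muscle gene TpnC73F 9.25, above every T1 array. In T10 against T2, 3 of the 6 fat body genes were lower and 0 higher without overlap, beside 9.41% and 11.9% of all probe sets. Without T2 replicate 3, Yp2 was called lower in T10 than in T2 (-3.43, adjusted p = 0.0396, limma), beside 4.32% of all probe sets. Another probe set of the muscle gene sls was called higher in T10 than in T1 by 1.57 in the pairwise fit (adjusted p = 0.0389, limma). Without T2 replicate 3 the neuron gene nSyb was called lower in T10 than in T1 (-0.72, adjusted p = 0.0486, limma). RMA values have no true zero, so no marker can be given as absent.

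The genes with the pattern most like that of the members were taken from 2046 probe sets with 1 symbol and a range of at least 2 log2, by the Pearson correlation over the 9 arrays, given as a description of arrays that differ mainly by round. For Delta these were Cad86C (0.965), CG42288 (0.964), tkv (0.960), CG32982 (0.952) and CG34417 (0.947), with tkv coding for a receptor of the Dpp ligand and Cad86C for a cadherin. For neur they were numb (0.943), which codes for an inhibitor of Notch, then Sema5c (0.930), Cyp6v1 (0.921), 18w (0.909) and CG16799 (0.897). The gene numb shares with neur a T1 replicate 3 near the later rounds, at 8.46 beside 7.34 and 6.70 in the other T1 arrays. For E(spl)m3-HLH they were CG4619 (0.904), nub at 2 of its 3 probe sets (0.875 and 0.836), E(spl)m7-HLH of the same complex (0.833) and Tet (0.830).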

How the data were processed

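The authors amplified cDNA from 25 ng of total RNA over 17 cycles with a whole transcriptome kit and hybridized 8 µg of labelled cDNA to single-color Affymetrix arrays. They deposited log2 values, rounded to 2 decimals, after RMA background correction and summarization with the R packages affy and affyPLM (versions: not given in the sources used here). These values entered the tests unscaled. The file holds 18952 probe sets, and without its 183 controls 18769 were tested, with no filter on dim ones. The platform annotation gave 1 gene symbol to 13647 of them, and 13544 of these were updated through RefSeq, which served for names and gene order only. For lists, the probe set with the highest mean stood for its gene.

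The tests used limma 3.58.1 under R 4.3.3, with lmFit and eBayes and no covariate, on all 9 arrays, and were tested on simulated data. Groups and replicate numbers come from the sample labels. The members and gene lists were chosen with earlier results of these data known. From the lists, genes called on all 9 arrays or in the pairwise fit were named, and else the 2 with the smallest p. The other E(spl) and Bearded genes, kuz, numb, O-fut1, rumi, esg, nub, btl, sls and nSyb were named beside this rule after their values had been seen. So were cpo, mam, Gasp, vvl, Col4a1, vkg, NimC1, Nplp2, apolpp, Yp2 and TpnC73F. Between same-numbered arrays, the correlation of deviations from the round mean was -0.284 to 0.188 over 9 pairs and exceeded 0.1 in 3. With 3 arrays a round this cannot decide whether same-numbered arrays come from the same macrometastasis, and the labels do not state it. The number of arrays limits the precision. No sequences or coordinates were used here.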

Additional observations from a re-analysis of the deposited data

How the results depend on the processing

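On all 9 arrays 0 member probe sets were called by limma in any comparison, and 0 of the 47 pathway genes. For T10 against T1, 2 member probe sets were called with only the arrays of these rounds and 2 with array weights, and 0 to 3 when arrays or replicate numbers were left out. The pathway genes called there were 8, 16 and 0 to 15, and the pairwise fit called 2.98% of all probe sets higher and 2.99% lower. With array weights, and with arrays other than T2 replicate 3 left out, the share of all probe sets called was not counted. The counts from those fits, here and for T10 against T2, are therefore not a result about the pathway. Without T10 replicate 3 the pathway count was 1, with T1 replicate 3 left out it was 7, and without T2 replicate 3 it was 8. For T10 against T2, 0 to 1 members were called when arrays were left out, and 5 pathway genes with array weights against 0 to 9 when arrays were left out. The largest counts when arrays were left out, 15 and 9, come from leaving out T1 replicate 3 and T2 replicate 3 together, an alternative chosen after seeing the data. The replicate block called 0 members and 0 pathway genes in each comparison and left the log2 difference of Delta at 3.36 (adjusted p = 0.114 from limma). Whether the replicate numbers pair the arrays is not known.

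Of 504 alternative values of the member probe sets, 468 kept direction and side of the threshold, 17 newly passed it and 19 turned direction, none of these called. With quantile normalization, the difference of H at 1638568_s_at was -0.026 for T10 against T1, that of H at 1639839_s_at was -0.086 for T2 against T1, and that of neur was 0.009 for T10 against T2. When arrays or replicate numbers were left out, these 3 differences ranged from -0.100 to 0.075, from -0.075 to 0.180 and from -0.110 to 0.005. In the same way, the difference of E(spl)m3-HLH for T10 against T2 ranged from -0.830 to 0.465, that of E(spl)mbeta-HLH for T10 against T1 from -0.710 to 0.265 and for T2 against T1 from -0.025 to 0.785. The filter on dim probe sets, the floor, moderation with a trend, and the replicate number as a random effect changed no call of a member. The cause of these shifts was not tested.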
